A study of Mus musculus with 10 samples.

Results

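The 34 genes described here are markers of the immune cells of the liver: Kupffer cells, monocyte-derived macrophages, antigen-presenting cells, T, natural killer (NK) and B lymphocytes, and neutrophils. They were taken by symbol from the mouse genes of a raw count table of liver RNA-seq, and all 34 were among its 16647 listed genes. The livers came from male mice of Taconic model 11585, called humanized PXR-CAR-CYP3A4/3A7, in which the human nuclear receptors PXR and CAR and the human *CYP3A4* and *CYP3A7* genes stand in place of their mouse counterparts in every liver of both groups. The mice were 10 to 15 weeks old at the start and received a high-fat diet (HFD) for 8 weeks before dosing. All of them stayed on that diet during dosing and were given, by oral gavage 3 times per week for 4 weeks, either MI-883, a compound that acts on CAR and PXR, at 5 mg/kg (5 livers) or the vehicle of DMSO, PEG300 and corn oil (5 control livers). Each liver is a separate animal, and no chow-fed group was analysed here. The labels name no batch, sequencing date or litter.

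Kupffer cells are the resident macrophages of the liver sinusoids. They clear particles, bacteria and old red blood cells from portal blood, and most are seeded before birth and renew themselves in place, marked by the lectin *Clec4f* and the phosphatidylserine receptor *Timd4*. During diet-induced steatosis, blood monocytes that carry the chemokine receptor *Ccr2* can enter the liver and become macrophages, including lipid-associated macrophages that express *Trem2*, *Gpnmb*, *Cd9* and *Itgax*. Major histocompatibility complex (MHC) class II molecules, which dendritic cells, B cells and macrophages use to present peptides to CD4+ T cells, are switched on together by the coactivator CIITA.

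Library totals ran from 24014461 to 36221514 counts in the control livers and from 23513665 to 28349963 in the MI-883-treated livers. Levels are CPM (counts relative to library size, scaled by the TMM method), and 3 counts, the limit that a count of 0 allows, correspond to 0.0838 to 0.133 CPM depending on the liver, for counting error only. All 34 members passed the minimum of 60 counts summed over the 10 livers. The hepatocyte markers were abundant in every liver, with *Alb* (albumin) at a mean of 56570 ± 4447 CPM in the control and 50500 ± 3590 CPM in the MI-883 group (S.D., n = 5 each). These are bulk livers, so fewer cells of a type and less RNA per cell cannot be told apart.

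No member passed the threshold in the comparison of 5 MI-883-treated with 5 control livers. In the quasi-likelihood test of edgeR, 0 of 34 members had a Benjamini-Hochberg adjusted P under 0.05, against 1.03% of the 13219 tested genes (0.764% higher and 0.265% lower in MI-883). DESeq2 also called 0 members, against 3.5% of all tested genes. At an unadjusted edgeR P under 0.05 there were 3 of 34 members, *Cd68*, *Itgax* and *Ccl5*, against 15.6% of all tested genes. The range of livers in the 2 groups overlapped for every member, whereas 3.99% of all tested genes did not overlap (2.05% higher and 1.94% lower). The lowest adjusted P among the members was that of *Ccl5*, at 0.198 in edgeR and 0.076 in DESeq2.

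By direction, 24 of the 34 members had a log2 fold change above 0 and 10 had one below, beside 51% above 0 among all tested genes. The median log2 fold change was 0.133 over the members and 0.0045 over all tested genes. All 8 monocyte and macrophage members lay above 0, with a median of 0.575, and all 6 T and NK cell members lay below 0, with a median of −0.50. The medians of the other classes were 0.0513 for the 8 Kupffer cell members, 0.167 for the 4 pan-leukocyte members, 0.199 for the 4 MHC class II members, −0.136 for the 2 B cell members and −0.113 for the 2 neutrophil members. These medians moved when single livers were left out. Without MI-883 1 the monocyte and macrophage median fell to 0.347, and those of the Kupffer cell, pan-leukocyte and MHC class II members turned to −0.15, −0.119 and −0.041. Without control 5 the monocyte and macrophage median was 0.382, without control 3 the T and NK cell median was −0.293, and without control 2 the neutrophil median turned to 0.231. None of these class values was tested, since the members were chosen with results of these data known.

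**Figure D1:**
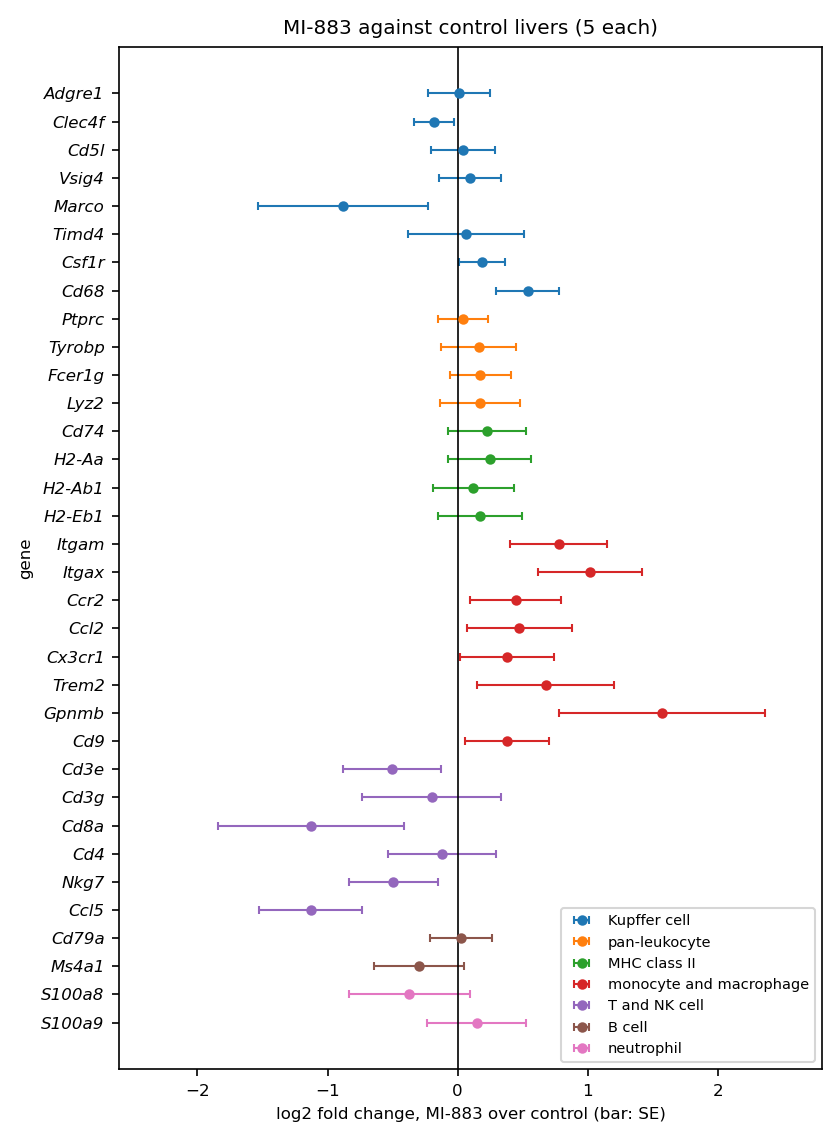
Fitted log2 fold change of each member, MI-883 over control (horizontal axis; point, estimate; bar, standard error; 5 livers per group), with genes listed by class and coloured by it. The red monocyte and macrophage genes all lie to the right of 0, up to 1.57 for *Gpnmb*, and the purple T and NK cell genes all lie to the left, down to −1.13, but no gene passed the adjusted threshold.

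The members differed far more between livers of the same group than most liver genes did. The biological coefficient of variation (BCV, the spread between livers within a group that remains after counting noise, from the tagwise dispersion of edgeR) had a median of 35.2% over the members and 12.8% over all tested genes, and all 34 members were above the latter. Set against the tested genes of like abundance (within a factor of 2 in mean CPM), 31 of 34 were above the median of those genes. The 3 below it were *Cd3e*, *Cd79a* and *Ms4a1*, all low-count lymphocyte genes. The class medians of the BCV were 26.5% for Kupffer cell, 28.8% for pan-leukocyte, 34.6% for MHC class II, 40.9% for monocyte and macrophage, 40.9% for T and NK cell, 21.4% for B cell and 44.5% for neutrophil members.

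**Figure D2:**
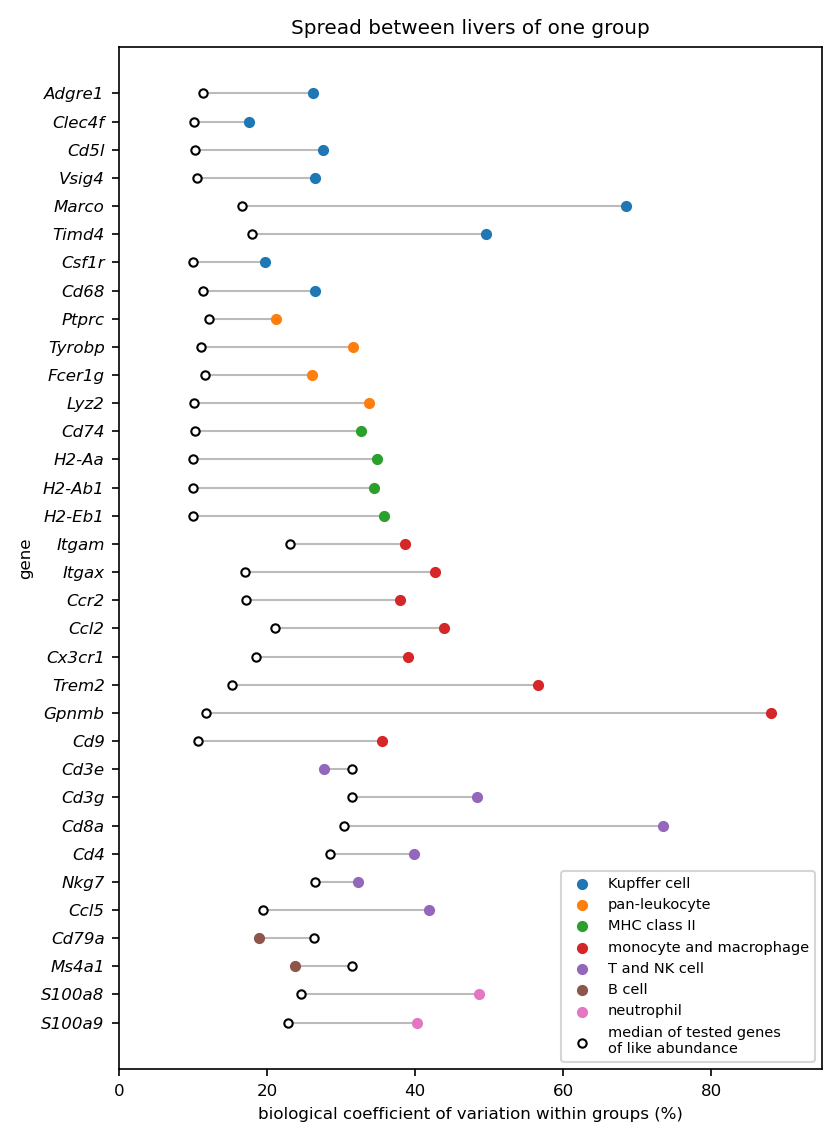
Biological coefficient of variation of each member within groups (filled, coloured by class) beside the median of tested genes of like abundance (open), in percent. *Gpnmb* at 88.2%, *Cd8a* at 73.5% and *Marco* at 68.5% lie furthest to the right, while *Cd3e*, *Cd79a* and *Ms4a1* lie left of their open circle.

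The livers were ordered alike by many of the members, and the order differed between cell classes. Control 1, control 2, MI-883 1 and MI-883 3 were the 4 highest livers for 17 of 34 members, a pattern held by 3.59% of all tested genes. Those 17 comprised all 4 pan-leukocyte, all 4 MHC class II, 5 of 8 monocyte and macrophage and 4 of 8 Kupffer cell members, and none of the 10 T and NK cell, B cell and neutrophil members. The 4 Kupffer cell members were *Adgre1*, *Cd5l*, *Csf1r* and *Cd68*, whereas *Clec4f*, *Vsig4*, *Marco* and *Timd4* lacked the pattern. Control 5 was the lowest control liver for 27 of 34 members, against 23.3% of all tested genes, and the lowest of all 10 for 20. The sum of all 34 members was lowest in control 5 (439 CPM) and highest in MI-883 1 (1199 CPM). These 4 livers were picked out after their values were seen, so the counts describe the livers and carry no test.

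**Figure D3:**
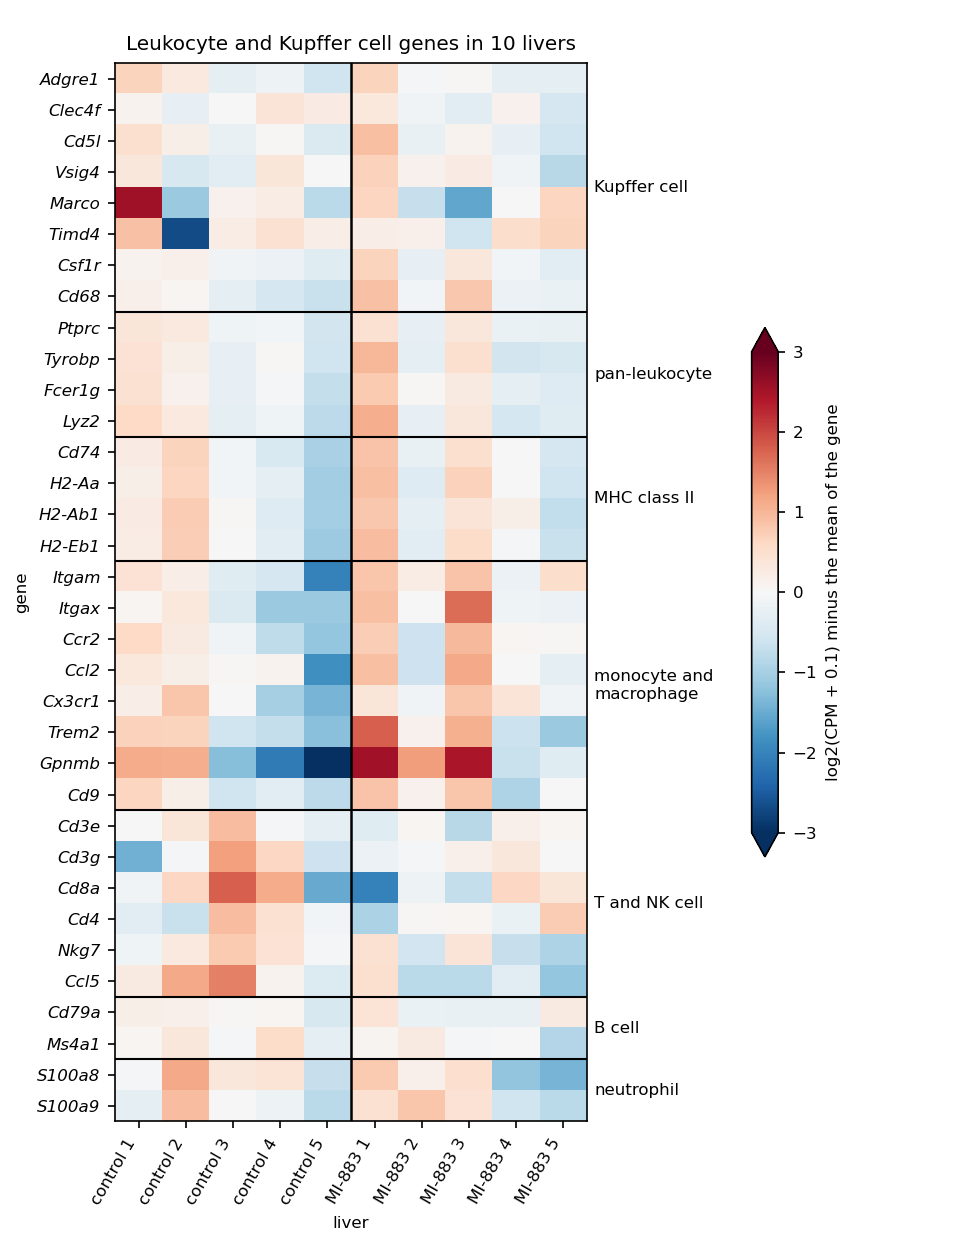
Heat map of log2(CPM + 0.1) minus the mean of the gene over 10 livers, with 34 genes in rows by class and livers in columns, the vertical line separating the 5 control from the 5 MI-883 livers. Red columns at control 1, control 2, MI-883 1 and MI-883 3 run through the pan-leukocyte, MHC class II and monocyte and macrophage blocks, whereas the T and NK cell block is reddest at control 3.

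**Figure D4:**
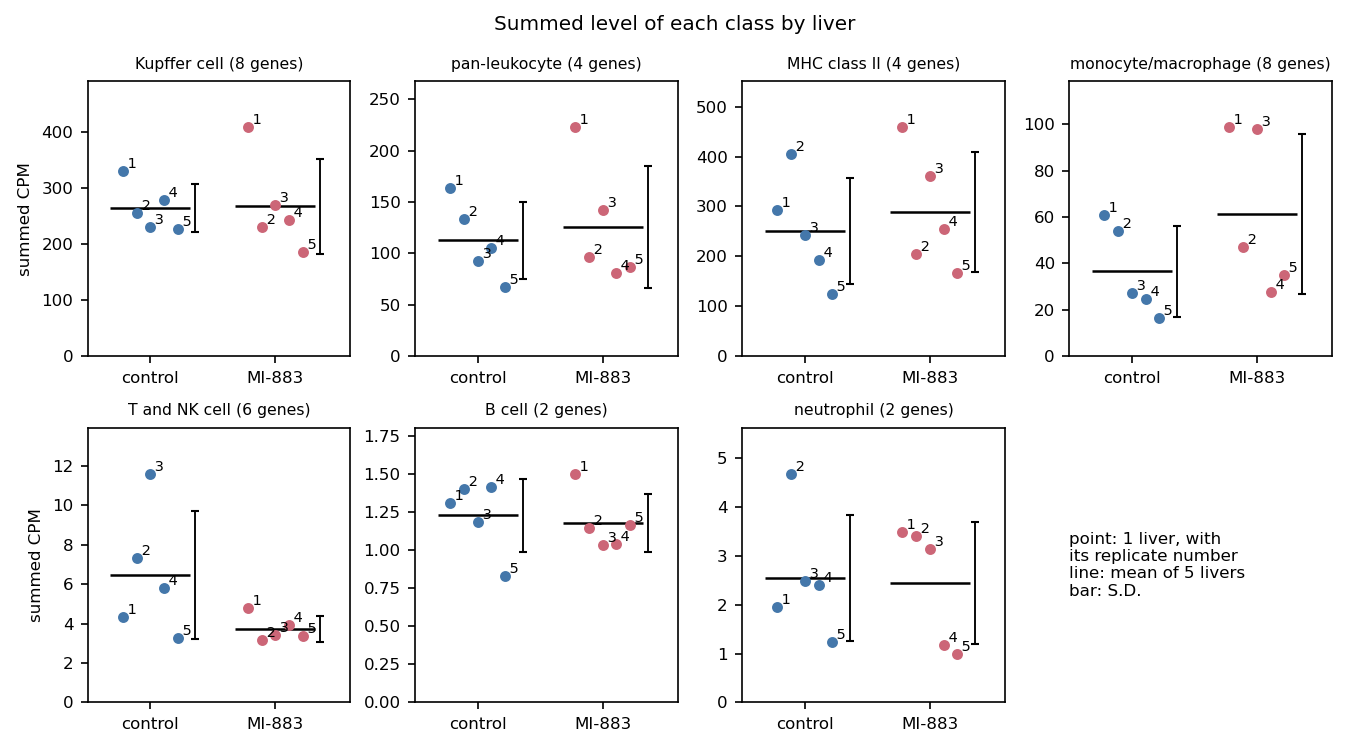
Summed CPM of the members of each class in each liver (points, labelled with the replicate number; line, mean; bar, S.D.; vertical axes start at 0). In every panel the 2 groups overlap, and the monocyte and macrophage panel is lowest in control 5 (16.3 CPM) and highest in MI-883 1 (98.7 CPM).

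Among the Kupffer cell members, *Clec4f* varied least between livers, and *Marco* and *Timd4* varied most. *Cd5l*, a secreted scavenger receptor family protein of tissue macrophages, had the highest level of the class per kilobase of exon, at 46.4 CPM per kb. It was measured at 127, 103, 77.0, 93.1 and 66.5 CPM in control livers 1 to 5 and at 169, 77.5, 97.3, 76.3 and 59.3 CPM in MI-883 livers 1 to 5. MI-883 1 and control 1 were highest, the groups overlapped over nearly their whole range, and the log2 fold change was 0.041 (SE 0.25, edgeR adjusted P = 0.956).

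*Clec4f*, a lectin made by Kupffer cells, was the steadiest member with a BCV of 17.5%. Its values were 78.9, 62.1, 73.4, 96.4 and 88.1 CPM in the control livers and 92.1, 68.1, 59.2, 81.2 and 51.8 CPM in the MI-883 livers. Control 5, the lowest liver for most other members, was among the higher livers for *Clec4f*, and the highest liver held 1.86 times the lowest. The log2 fold change was −0.18 (SE 0.15, adjusted P = 0.605).

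*Timd4*, which marks long-resident Kupffer cells, had a BCV of 49.5%. It stood at 5.08, 0.344, 3.19, 3.82 and 3.16 CPM in controls 1 to 5 and at 3.14, 3.05, 1.78, 3.96 and 4.40 CPM in MI-883 livers 1 to 5. Control 2, with 11 counts, stood apart from all other livers, the next lowest being MI-883 3. In control 2 *Clec4f* was the lowest of the control livers and *Csf1r* the highest, at 46.4 CPM. *Cd163*, the haemoglobin scavenger receptor in the further Kupffer list, was also lowest in that liver, at 1.50 CPM against 5.77 to 13.9 CPM elsewhere.

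*Marco*, a scavenger receptor for bacteria and particles, had the largest coefficient of variation of the class, 116% over the 10 livers. In control livers 1 to 5 it was at 16.9, 1.25, 3.10, 3.33 and 1.58 CPM, and in the MI-883 livers at 4.44, 1.73, 0.888, 2.83 and 4.47 CPM. Control 1 alone was high, at 607 counts. Its log2 fold change of −0.88 (SE 0.65, adjusted P = 0.544) became 0.31 without control 1.

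Of the remaining Kupffer cell members, *Adgre1*, *Cd68* and *Csf1r* had control 1, control 2, MI-883 1 and MI-883 3 as their 4 highest livers and control 5 as their lowest, and *Vsig4* had neither. *Adgre1* (F4/80), an adhesion receptor of mouse macrophages, was highest in MI-883 1 at 20.9 CPM and control 1 at 20.6 CPM and lowest in control 5 at 8.60 CPM. *Cd68*, a lysosomal glycoprotein of phagocytes, was at 14.0, 13.1, 10.3, 8.77 and 7.85 CPM in the control livers and at 23.0, 11.7, 21.9, 11.1 and 10.9 CPM in the MI-883 livers. All 5 MI-883 livers were above the control median for *Cd68*, with a log2 fold change of 0.54 (SE 0.24, unadjusted P = 0.044, adjusted P = 0.306). *Csf1r*, the receptor for the growth factors that maintain macrophages, ranged from 32.2 to 66.1 CPM. *Vsig4*, a complement receptor of resident macrophages, ranged from 10.6 to 30.6 CPM and was lowest in MI-883 5, with control 2 the lowest of the control livers. Part of *Csf1r* (15.1% of its exon bases) lies opposite exons of *Hmgxb3*, and the strand setting of the counting is not given in the sources used here.

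The 4 members of the pan-leukocyte class, which also holds signalling adaptors and the myeloid gene *Lyz2*, were ordered alike. *Ptprc* encodes CD45, the phosphatase on all nucleated blood cells, *Tyrobp* and *Fcer1g* encode signalling adaptors of activating immune receptors, and *Lyz2* encodes the lysozyme of myeloid cells. In the control group all 4 genes gave the same order of livers, 1 > 2 > 4 > 3 > 5, which 2.31% of all tested genes shared. In the MI-883 group MI-883 1 and then MI-883 3 were highest for all 4 genes.

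*Lyz2* was the most abundant of the class at 62.1 CPM per kb. It reached 116, 92.8, 61.9, 69.7 and 44.3 CPM in the control livers and 161, 64.2, 95.8, 53.0 and 59.3 CPM in the MI-883 livers. The highest liver was 3.63 times the lowest, the groups overlapped, and the log2 fold change was 0.17 (SE 0.31, adjusted P = 0.819). *Fcer1g*, with the largest fold change of the class, was at 15.8, 12.5, 9.60, 11.1 and 6.89 CPM in the control livers and at 19.7, 11.7, 13.7, 9.48 and 8.72 CPM in the MI-883 livers. Its log2 fold change was 0.18 (SE 0.24, adjusted P = 0.755). *Tyrobp* ranged from 9.26 to 28.5 CPM and *Ptprc* from 6.80 to 13.8 CPM. All 4 log2 fold changes fell below 0 without MI-883 1.

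The MHC class II members were the most tightly ordered class. *H2-Aa*, *H2-Ab1* and *H2-Eb1* encode chains of the I-A and I-E molecules, and *Cd74* encodes the invariant chain that escorts them to the endosome. All 4 genes ranked the control livers 2 > 1 > 3 > 4 > 5 and the MI-883 livers 1 > 3 > 4 > 2 > 5, and 14 of the 13219 tested genes (0.106%) had both orders. The 14 also included *Csf1r* among the members and *C1qb*, a complement gene of the further Kupffer cell list. *H2-DMa* and *H2-DMb1*, subunits of the peptide exchange factor of class II molecules, had both orders as well. The genes from the further lists were picked out after their values were seen. *Ciita*, the gene of the coactivator, had neither order: control 5 was its lowest liver, at 0.789 CPM, and MI-883 3 its highest, at 3.00 CPM.

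*Cd74* had the highest level of all members per kilobase, 68.0 CPM per kb. Control livers 1 to 5 gave 126, 169, 100.1, 77.1 and 54.3 CPM and MI-883 livers 1 to 5 gave 194, 91.0, 149, 107 and 74.6 CPM. MI-883 1 and control 2 were highest and control 5 was lowest, with a log2 fold change of 0.23 (SE 0.30, adjusted P = 0.750). *H2-Aa*, with the largest fold change of the class, was at 64.7, 89.3, 53.6, 46.5 and 27.7 CPM in the control and 106, 43.3, 92.1, 56.3 and 37.3 CPM in the MI-883 livers (log2 fold change 0.25, SE 0.32, adjusted P = 0.743). *H2-Eb1*, with the largest coefficient of variation at 42.4%, was at 49.4, 70.9, 42.7, 34.1 and 20.0 CPM in the control and 80.5, 33.9, 62.1, 41.4 and 26.8 CPM in the MI-883 livers. Its groups overlapped and its log2 fold change was 0.17 (SE 0.33, adjusted P = 0.831). *H2-Ab1* ranged from 21.8 to 78.7 CPM, with a log2 fold change of 0.12.

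These genes kept 1 order within each group, and the bases before the start sites of 2 of them are shown as a description. The X box and the Y box are the elements of class II promoters to which the RFX and NF-Y factors bind, and on which CIITA acts. RefSeq promoter sequences of GRCm38.p6 were matched for 25 of the 34 members. Among the class II members they were matched only for *H2-Aa* and *H2-Eb1*, and not for *H2-Ab1* or *Cd74*. The 250 bases before each start were searched on both strands for the Y box letters CTGATTGG, which 4.43% of 27025 genes held, and for the X box core GCAAC, which 33% held. Both were found together in 1.62% of genes and in 2 of the 25 members. The 120 bases before the start are printed 5′ to 3′ on the strand of the gene, with the matches in capitals, for *H2-Aa* at chr17:34287824-34287943 (minus strand) and for *H2-Eb1* at chr17:34305747-34305866 (plus strand).
H2-Aa: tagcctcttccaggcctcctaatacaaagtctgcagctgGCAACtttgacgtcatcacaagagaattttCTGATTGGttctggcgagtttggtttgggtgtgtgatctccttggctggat
H2-Eb1: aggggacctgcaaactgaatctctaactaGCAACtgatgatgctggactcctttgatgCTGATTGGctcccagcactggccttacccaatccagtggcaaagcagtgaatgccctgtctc
The Y box began 51 bases before the start in *H2-Aa* and 62 in *H2-Eb1*, and the X box core began at 81 and 91 bases. The myeloid PU.1 core GAGGAAG was found in the same window of 5 of the 25 members (20%, *Cd5l*, *Itgam*, *Marco*, *S100a8* and *Trem2*), beside 12% of all genes. A match of letters is a description and shows no binding.

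The monocyte and macrophage members included the member with the highest BCV and the largest fitted fold change. *Gpnmb*, a glycoprotein of lysosomes in lipid-loaded macrophages, was at 12.2, 12.2, 2.25, 1.22 and 0.263 CPM in control livers 1 to 5 and at 33.0, 13.5, 31.0, 3.52 and 4.32 CPM in MI-883 livers 1 to 5. Control 5 held 6 counts and MI-883 1 held 965, and all 5 MI-883 livers were above the control median while 2 control livers were above the 2 lowest MI-883 livers. The mean was 5.62 ± 6.04 CPM in the control and 17.1 ± 14.2 CPM in the MI-883 group (S.D., n = 5 each). The log2 fold change of 1.57 (SE 0.79) had an adjusted P of 0.356 in edgeR and 0.440 in DESeq2. With a BCV of 88.2%, *Gpnmb* was exceeded by 18 of the 13219 tested genes.

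*Trem2*, the lipid-sensing receptor of the same macrophages, gave 6.65, 6.53, 2.66, 2.46 and 1.67 CPM in the control livers and 14.4, 4.51, 8.77, 2.57 and 1.84 CPM in the MI-883 livers. MI-883 1 and MI-883 3 were highest and control 1 and control 2 next, the groups overlapped, and the log2 fold change was 0.68 (SE 0.53, adjusted P = 0.566), or 0.13 without MI-883 1. *Itgax* (CD11c, an integrin of dendritic cells and fat-associated macrophages) was at 3.35, 4.06, 2.37, 1.45 and 1.45 CPM in the control and 6.08, 3.27, 10.6, 2.96 and 2.84 CPM in the MI-883 livers. MI-883 3 was the highest, all 5 MI-883 livers were above the control median, and the log2 fold change was 1.01 (SE 0.40, unadjusted P = 0.025, adjusted P = 0.246), or 0.57 without MI-883 3.

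*Cd9*, a membrane tetraspanin that hepatic macrophages share with many other cells, had the highest level of the class per kilobase, 9.13 CPM per kb. Its values were 26.8, 19.3, 11.3, 13.5 and 9.91 CPM in the control livers and 30.8, 18.8, 30.3, 8.96 and 16.9 CPM in the MI-883 livers. Control 1, MI-883 1 and MI-883 3 were highest, and the log2 fold change was 0.38 (SE 0.32, adjusted P = 0.601), or 0.21 without MI-883 1. *Cd9* shares 10.7% of its exon bases with a transcript on the opposite strand, *Gm26728*.

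The other members of the class are an integrin, chemokine receptors and the chemokine *Ccl2*, whose cell source was not tested. *Itgam* (CD11b) was at 1.65, 1.38, 0.899, 0.811 and 0.219 CPM in the control and 2.19, 1.42, 2.22, 1.04 and 1.77 CPM in the MI-883 livers. All 5 MI-883 livers were above the control median, with a log2 fold change of 0.78 (SE 0.37, adjusted P = 0.340) and an exact two-sided permutation P of 0.0556, where 0.00794 is the smallest possible. *Itgam* shares 68.7% of its exon bases with the annotated gene *Gm49368* on the same strand, so its counts are uncertain. *Ccr2*, the receptor by which monocytes leave the marrow, ranged from 1.45 to 6.77 CPM, and its ligand *Ccl2* from 0.395 to 3.81 CPM. *Cx3cr1*, the fractalkine receptor, ranged from 0.921 to 4.70 CPM. For these 3 genes control 5 was lowest and MI-883 3 highest, with log2 fold changes of 0.45, 0.47 and 0.38, which were 0.23, 0.20 and 0.21 without MI-883 3.

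Relative to *Clec4f* in the same liver, per base of exon, the lipid-associated and class II genes varied widely. So did the Kupffer cell members *Timd4* and *Marco*. *Gpnmb* amounted to 0.113% of *Clec4f* in control 5 and 19.9% in MI-883 3, and *Trem2* to 0.946% and 7.83% at its lowest (control 5) and highest (MI-883 1). *H2-Aa* ran from 20.5% of *Clec4f* in control 5 to 101% in MI-883 3. *Timd4* instead ran from 0.629% in control 2 to 9.64% in MI-883 5, and *Marco* from 1.93% in MI-883 3 to 27.6% in control 1. These ratios also move with *Clec4f* itself, which was lowest in MI-883 5 and MI-883 3, at 51.8 and 59.2 CPM. In CPM, *Gpnmb* and *H2-Aa* were highest in MI-883 1 and *Timd4* was highest in control 1.

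**Figure D5:**
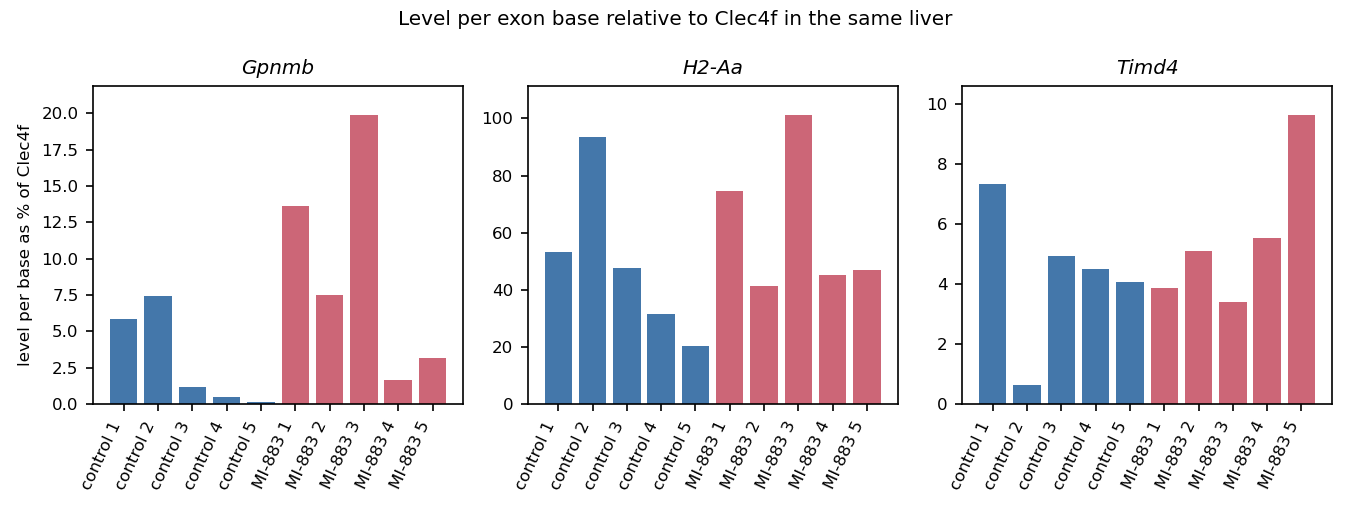
Level per exon base of *Gpnmb*, *H2-Aa* and *Timd4* as a percentage of *Clec4f* in the same liver (bars from 0; blue, control; red, MI-883). *Gpnmb* and *H2-Aa* peak in MI-883 3 and are lowest in control 5, whereas *Timd4* is lowest in control 2 and highest in MI-883 5.

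T and NK cell members were scarce, and their livers were ordered differently. *Cd3e* and *Cd3g* encode chains of the T cell receptor complex, *Cd4* and *Cd8a* its coreceptors, *Nkg7* a protein of cytotoxic granules and *Ccl5* a chemokine of activated T and NK cells. Control 3, which was never highest for a myeloid or class II member, was the highest of the 10 livers for all 6 genes, against 10% of all tested genes. The 6 genes summed to 3.29 to 11.6 CPM in the control and 3.14 to 4.79 CPM in the MI-883 livers.

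*Ccl5* had the highest level of the class per kilobase, 2.60 CPM per kb, and the largest fold change. It was at 2.54, 4.72, 6.13, 2.26 and 1.53 CPM in control livers 1 to 5 and at 2.94, 1.15, 1.15, 1.65 and 0.886 CPM in MI-883 livers 1 to 5. MI-883 1 was above 3 of the control livers and the other 4 MI-883 livers were below the control median. The mean was 3.44 ± 1.92 CPM in the control and 1.55 ± 0.822 CPM in the MI-883 group (S.D., n = 5 each). The log2 fold change was −1.13 (SE 0.40), with an unadjusted P of 0.0138, an adjusted P of 0.198 and an exact two-sided permutation P of 0.0556.

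*Cd8a* had the largest coefficient of variation of the class, 90.8%, on 0 to 32 counts per liver. Control livers gave 0.279, 0.531, 1.31, 0.782 and 0.0439 CPM and MI-883 livers gave 0, 0.266, 0.148, 0.522 and 0.425 CPM. The count of 0 in MI-883 1 allows up to 0.103 CPM, so that liver and control 5 could not be told apart at this depth. The log2 fold change was −1.13 (SE 0.72, adjusted P = 0.468). *Cd3e* ranged from 0.148 to 0.736 CPM, *Cd3g* from 0.0559 to 0.899 CPM, *Cd4* from 0.239 to 1.14 CPM and *Nkg7* from 0.355 to 1.39 CPM. The lowest *Cd3g* value, in control 1, rested on 2 counts, below the 0.0838 CPM that 3 counts correspond to in that liver. Without control 3, the log2 fold changes of *Cd3g* and *Cd4* turned to 0.29 and 0.17 and those of *Cd8a* and *Cd3e* were −0.66 and −0.24, so the shared direction of the 6 genes rested in part on that liver.

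The B cell members were low and even. *Cd79a*, a chain of the B cell receptor complex, was at 0.950, 0.937, 0.858, 0.869 and 0.570 CPM in the control livers and at 1.13, 0.708, 0.703, 0.696 and 1.03 CPM in the MI-883 livers. *Ms4a1* (CD20) was at 0.363, 0.469, 0.327, 0.550 and 0.263 CPM in the control livers and at 0.376, 0.442, 0.333, 0.348 and 0.142 CPM in the MI-883 livers. Both genes overlapped between the groups, with log2 fold changes of 0.025 (SE 0.24, adjusted P = 0.974) and −0.30 (SE 0.34, adjusted P = 0.706).

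*S100a8* and *S100a9* encode the 2 subunits of calprotectin, abundant in the cytoplasm of neutrophils and monocytes. *S100a9* was at 1.06, 2.56, 1.31, 1.16 and 0.702 CPM in the control livers and at 1.85, 2.39, 1.81, 0.827 and 0.709 CPM in the MI-883 livers. *S100a8*, with the larger fold change and variation, was at 0.894, 2.12, 1.18, 1.25 and 0.526 CPM in the control and 1.64, 1.02, 1.33, 0.348 and 0.284 CPM in the MI-883 livers. Control 2 was the highest liver for both genes and control 5, MI-883 4 and MI-883 5 were low, with log2 fold changes of 0.14 (SE 0.38, adjusted P = 0.886) and −0.37 (SE 0.46, adjusted P = 0.732). Of the 14 further neutrophil genes 10 were below the minimum of counts, with *Ly6g*, a surface marker of mature neutrophils, seen as a single count in control 2 and in no other liver. *Csf3r*, the receptor for the granulocyte growth factor, was at 3.21, 3.03, 2.70, 2.06 and 1.49 CPM in the control livers and 4.85, 2.61, 4.96, 2.57 and 2.27 CPM in the MI-883 livers. MI-883 3 and MI-883 1 were its highest livers and control 5 its lowest, and its log2 fold change was 0.46 (SE 0.27, adjusted P = 0.425).

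Further genes of each lineage were taken from lists chosen by function. Of 20 further Kupffer cell genes, 19 were tested and 1 was called by both tools, *C6*, a terminal complement component that hepatocytes also make. Among all tested genes edgeR called 1.03% and DESeq2 3.5%, and 3.99% did not overlap between the groups. *C6* was at 241, 216, 330, 219 and 230 CPM in the control livers and at 336, 345, 369, 376 and 427 CPM in the MI-883 livers, without overlap. Its log2 fold change was 0.59 (SE 0.12) with an adjusted P of 0.0306 in edgeR and 0.000186 in DESeq2. Of the 10 fits that each left out 1 liver, 3 kept it under 0.05 (without control 1, control 3 or MI-883 1), and the highest adjusted P was 0.0927. The other 18 tested genes of that list were not called, including the complement C1q genes *C1qa*, *C1qb* and *C1qc*, which were highest in MI-883 1 (87.2, 26.4 and 79.0 CPM). At an unadjusted edgeR P under 0.05 there were 3 of the 19, *C6*, *Fcna* and *Nr1h3*, against 15.6% of all tested genes. The log2 fold changes of *Fcna* and *Nr1h3* were −0.49 (SE 0.17, edgeR adjusted P = 0.181) and −0.19 (SE 0.074, edgeR adjusted P = 0.252). For both genes no MI-883 liver was above the control median, and the groups overlapped. By direction, 12 of the 19 lay above 0 and 7 below, with a median of 0.125.

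Of 30 further monocyte, macrophage and dendritic cell genes, 30 were tested and 0 were called by edgeR or DESeq2. There was 1 at an unadjusted edgeR P under 0.05, against 15.6% of all tested genes. Of the 30, 24 had a log2 fold change above 0 and 6 below. Their median was 0.213, beside 0.575 for the 8 monocyte and macrophage members. Control 1, control 2, MI-883 1 and MI-883 3 were the 4 highest livers for 14 of the 30. *Spp1* (osteopontin, made by macrophages and bile duct cells) had the highest mean CPM, with 108, 65.8, 22.9, 29.5 and 20.3 CPM in the control livers and 138, 47.1, 180, 29.3 and 44.0 CPM in the MI-883 livers. Its log2 fold change was 0.83 (adjusted P = 0.491).

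The 16 further antigen presentation genes, 17 tested T and NK cell genes, 11 tested B and plasma cell genes and 18 tested cytokine and chemokine genes gave 0 calls by edgeR or DESeq2. Their medians of log2 fold change were 0.0474, 0.032, 0.0183 and 0.181. At an unadjusted edgeR P under 0.05 there were 1, 1, 0 and 1 genes, against 15.6% of all tested genes. The gene with the highest mean CPM in each list was *H2-K1*, a class I heavy chain (1942 ± 84.0 CPM in the control, 1700 ± 138 in the MI-883 group), *Zap70*, a T cell receptor kinase (16.6 ± 4.76 and 11.9 ± 1.95 CPM), *Cd37*, a leukocyte tetraspanin (2.22 ± 0.480 and 2.42 ± 0.484 CPM), and *Ccl9*, a myeloid chemokine (85.7 ± 10.5 and 98.5 ± 13.9 CPM; S.D., n = 5 each). Beside *Zap70*, the T cell member *Cd3e* had means of only 0.424 and 0.298 CPM, and the cell source of *Zap70* was not tested. Control 3, the highest liver for all 6 T and NK cell members, was the highest for 4 of the 17 further T and NK cell genes (23.5%, against 10% of all tested genes), among them *Cd8b1*, the partner chain of *Cd8a*, at 0.572 CPM. The other 13 were highest in other livers, such as *Zap70* in control 4, *Cd3d* and *Gzmb* in control 2 and *Il7r* and *Klrk1* in MI-883 1.

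Of 14 further neutrophil genes, 4 reached the minimum. *Mmp9*, a gelatinase of neutrophils and macrophages, was at 0.335, 0.312, 0.163, 0.145 and 0.0877 CPM in the control livers and at 0.718, 0.487, 0.777, 0.348 and 0.567 CPM in the MI-883 livers. The groups did not overlap, on 2 to 21 counts per liver, and DESeq2 called the gene (adjusted P = 0.0484) where edgeR did not (adjusted P = 0.105, log2 fold change 1.42, SE 0.38). Of all tested genes, 3.99% did not overlap and DESeq2 called 3.5%. The gene with the highest mean CPM among the further neutrophil genes, *Wfdc21*, was at 502 ± 134 CPM in the control and 398 ± 99.9 CPM in the MI-883 group (S.D., n = 5 each). *Ly6g* was seen as a single count, and the cell source of *Wfdc21* was not tested.

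Control 1, control 2, MI-883 1 and MI-883 3 were the 4 highest livers for 2 of 5 bile duct markers and for none of the 6 stellate cell, 6 sinusoidal endothelial, 6 hepatocyte and 6 red blood cell and platelet markers, beside 3.59% of all tested genes. Bile duct and stellate cell markers shared part of that pattern, and their part in these results was not tested. The 5 bile duct markers summed to 25.0 to 116 CPM in the control and 35.1 to 190 CPM in the MI-883 livers, mostly from *Spp1*, and control 1 and control 2 were the 2 highest control livers for all 5, against 15.9% of all tested genes. The 6 stellate cell markers summed to 209 to 319 CPM and 229 to 376 CPM, and MI-883 1 or MI-883 3 was the highest liver for all 6, against 23.4% of all tested genes, while control 1 and control 2 were the 2 highest control livers for 2 of the 6. The 6 sinusoidal endothelial markers summed to 116 to 162 CPM and 132 to 175 CPM.

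The 6 hepatocyte markers summed to 62600 to 72360 CPM in the control and 54130 to 65420 CPM in the MI-883 livers, and all 6 had a log2 fold change below 0. *Ttr* (transthyretin) did not overlap, at 6465 ± 567 CPM in the control and 5447 ± 458 CPM in the MI-883 group (S.D., n = 5 each, edgeR adjusted P = 0.257). Of all tested genes, 3.99% did not overlap. The 6 listed red blood cell and platelet markers summed to 131 to 198 CPM and 93.5 to 175 CPM, and none of the marker genes was at 0 in all livers. In these 5 marker lists edgeR and DESeq2 called 0 genes, against 1.03% and 3.5% of all tested genes. Each list had 1 or 2 genes at an unadjusted edgeR P under 0.05, against 15.6% of all tested genes.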

How the data were processed

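Total RNA (RIN above 7) of 10 livers was made into directional libraries (NEBNext Ultra II) and sequenced in pairs on a NovaSeq6000. The authors aligned the reads to mm10 with STAR and counted them per gene with featureCounts, and fastp 0.23.0 is named in the submitters' processing notes. The deposited values are raw counts per Entrez gene and liver, with no normalization. The annotation, the strand setting of the counting and the version of STAR are not given in the sources used here, and no count column was left without a sample (0 columns).

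Of 16647 listed genes, 16644 were matched to symbols of RefSeq (GRCm38.p6). The 13219 genes whose counts over the 10 livers added up to 60 or more (3428 did not) were fitted in edgeR 4.0.16 (R 4.3.3, TMM scaling, quasi-likelihood F-test, 5 against 5 livers, no covariates) and P was adjusted by Benjamini-Hochberg over all of them, with a threshold of 0.05. The study's own rule, at least 60 counts in every liver, and DESeq2 1.42.0 were alternatives, with other scalings and filters, a replicate block and each liver left out. Single genes were also tested by an exact two-sided permutation of log2 CPM with a prior count of 1. The code was tested on simulated data. Levels per kilobase used the union of GENCODE M21 exons in place of RefSeq exons, which the table used here does not give.

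The members and lists were chosen with earlier results of these data known. The values of every liver were given for each member called or not overlapping (none) and, per class, for the members with the highest CPM per kilobase, the largest absolute log2 fold change and the largest coefficient of variation. *Clec4f*, *Timd4*, *Cd68*, *Trem2*, *Itgax* and *Itgam* were added after their values were seen, and so was *Adgre1*, with its highest and lowest livers only. Of the further lists, genes were named where edgeR or DESeq2 called them or the groups did not overlap (mean at least 0.3 CPM), and where they had the highest mean. *Cd163*, *C1qa*, *C1qb*, *C1qc*, *Fcna*, *Nr1h3*, *Cd8b1*, *Ciita*, *Csf3r*, *Ly6g*, *Cd3d*, *Gzmb*, *Il7r* and *Klrk1* were added after their values were seen. *Hbb-bt* of the red blood cell list was not analysed here.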

Additional observations from a re-analysis of the deposited data

Results flagged for a closer look

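Within a group of 5 livers, a value was singled out when its distance from the nearest liver, as a share of the whole range, exceeded the 95% limit of Dixon's test. Of 82 groups of values examined (34 members and 7 class sums in 2 groups), 5 were singled out, and chance alone gives about 4.1. *Marco* in control 1 was at 17.0 CPM, with the nearest control liver at 3.33 CPM. *Adgre1* in MI-883 1 was at 20.9 CPM, with the nearest MI-883 liver at 13.3 CPM. *Ccl2* in control 5 was at 0.395 CPM, below the nearest at 1.72 CPM, and *Cd79a* in the same liver was at 0.570 CPM, below the nearest at 0.858 CPM. The summed level of the 2 B cell members in MI-883 1 was 1.50 CPM, with the nearest liver at 1.17 CPM. The *Timd4* value of control 2 was not singled out by this test.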

How the results depend on the processing

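No member was called under any alternative: the lowest adjusted P over the 34 members was 0.076 with DESeq2, 0.197 with DESeq2 size factors, 0.238 with scaling by total counts, 0.196 with filterByExpr, 0.21 with no filter, 0.29 with at least 60 counts in every liver (15 members kept) and 0.118 with the replicate block. With at least 60 counts in every liver, 1 of the 8 monocyte and macrophage members was kept and no T and NK cell, B cell or neutrophil member. The directions of those classes could therefore not be assessed under that filter. With filterByExpr, 4 of the 6 T and NK cell members were kept, all below 0. Leaving out each liver in turn, the lowest adjusted P over the members was 0.0975, without MI-883 1. Over the fits that left out each liver in turn, the monocyte and macrophage median ran from 0.347 to 0.832 and the T and NK cell median from −0.593 to −0.293. Several class medians and class sums changed sign under the alternatives. Without MI-883 1 the Kupffer cell, pan-leukocyte and MHC class II medians and sums went below 0. The Kupffer cell sum also did without control 3 or control 5. The neutrophil median and sum went above 0 without control 2, MI-883 4 or MI-883 5 (medians of 0.231, 0.061 and 0.097). The B cell median was 0.027 with filterByExpr, which kept 1 of its 2 members. The count over all tested genes was 136, and it moved to 463 with DESeq2, to 89 with the replicate block and to between 62 and 203 without each liver in turn. By the exact permutation test, 0 members were under 0.05, and 1 was with DESeq2 size factors (*Itgam*, P = 0.0476), while leaving out each liver gave 0 to 1 (*Itgam* or *Ccl5*). With the replicate block *Cd5l* turned to −0.019, and no other member changed direction. Livers of the 2 groups with the same replicate number share only that number: their deviations from the group means correlated at −0.121 to 0.358, and no liver correlated best with its own number.

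Directions near 0 rested on single livers. Without MI-883 1, 11 members changed direction: *Adgre1* to −0.20, *Cd5l* to −0.27, *Vsig4* to −0.098, *Ptprc* to −0.080, *Tyrobp* to −0.16, *Fcer1g* to −0.044, *Lyz2* to −0.18, *H2-Ab1* to −0.10, *H2-Eb1* to −0.083, *Cd4* to 0.088 and *Cd79a* to −0.098. Without control 5, 7 did, and without control 3, 4 did. The ranges over the 10 fits were −0.20 to 0.21 for *Adgre1*, −0.27 to 0.18 for *Cd5l*, −0.098 to 0.26 for *Vsig4*, −1.13 to 0.31 for *Marco*, −0.23 to 0.32 for *Timd4*, −0.080 to 0.15 for *Ptprc*, −0.10 to 0.38 for *H2-Ab1*, −0.083 to 0.43 for *H2-Eb1*, −0.50 to 0.29 for *Cd3g*, −0.44 to 0.17 for *Cd4*, −0.098 to 0.089 for *Cd79a* and −0.068 to 0.51 for *S100a9*, and for *Tyrobp*, *Fcer1g* and *Lyz2* −0.16 to 0.30, −0.044 to 0.33 and −0.18 to 0.37. The 8 monocyte and macrophage members stayed above 0 in all 10 fits, with lowest values from 0.13 (*Trem2*) to 1.19 (*Gpnmb*). The lymphocyte and neutrophil members rest on few counts per liver, which limits what could be detected for them.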
